A study of Homo sapiens with 12 samples.

Results

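The 40 genes described here repair broken DNA or signal its presence: 10 genes of the Fanconi anaemia pathway, 12 of strand exchange in homologous recombination, 7 of break sensing and end resection, 7 of end joining and 4 checkpoint kinases. They were chosen by name, as rows of a table of raw read counts whose Ensembl gene IDs carry these symbols. All 40 were found among 60607 genes, and all 40 passed the filter on low counts that left 17320 genes for testing. RNA was sequenced in the human line AC16, which derives from adult ventricular cells fused to fibroblasts carrying SV40. There were 12 libraries in 4 groups of 3: cells of wild-type genotype in DMEM alone (control), and the same cells exposed to 0.1 µM doxorubicin for 2, 4 or 6 days. Titles state 48, 96 and 112 hours, so they disagree with the design about the longest exposure, and every title carries day 6. It is not stated whether the drug was still present at harvest. The series title and design ask how the response to doxorubicin, studied for its damage to the heart, runs over time. Whether the replicates were separate cultures is not stated. The p-values rest on the spread among libraries within groups, estimated over all 12 libraries together and partly shared across genes. That spread may be technical.

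Doxorubicin is an anthracycline that traps topoisomerase II on cut DNA and so leaves double-strand breaks. Cells mend such breaks either by homologous recombination, which copies the intact sister chromatid and works mainly in S and G2 phase, or by end joining, which ligates the ends in any phase. ATM and ATR, the kinases at the head of the checkpoint, sense breaks and stretches of single-stranded DNA and act through the kinases CHK2 and CHK1. Many recombination genes are transcribed mainly in dividing cells, under E2F factors. Adult heart muscle cells divide rarely, while AC16 cells grow as a dividing line.

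Levels are CPM, the counts of a gene relative to the library's TMM-scaled total. Changes are log2 fold changes ± SE from edgeR's quasi-likelihood test, called where the p adjusted by Benjamini-Hochberg across the tested genes was under 0.05. The SE was derived, as the absolute log2 fold change divided by the square root of the test's F statistic. Library totals ran from 14835743 to 21226441 counts, and 55962 to 109823 of these fell on the 40 genes. The mitochondrial share of counts was 8.26% in control replicate 2 (6.01% and 6.75% in the other controls) and 5.51% in 2-day replicate 3 (7.62% and 7.74% in the other 2-day libraries), so counts are also given without these libraries. Of 11 heart muscle markers only ACTN2 and NPPA passed the filter, MYL2 had 0 counts in every library, and the summed level of the 11 was 0.838 to 1.94 CPM per library, against 7590 to 11800 CPM for 8 fibroblast markers. The defining markers of the labelled cell type, cardiomyocytes, were therefore at or near 0. The summed level of 3 epithelial markers was 28.6 to 41.7 CPM in the controls, 49.8 to 51.4 CPM at 2 days, 23.5 to 27.7 CPM at 4 days and 23.5 to 26.6 CPM at 6 days. That of the fibroblast markers was 7590 to 8330 CPM in the controls, 11500 to 11800 CPM at 2 days, 9890 to 10400 CPM at 4 days and 8430 to 8890 CPM at 6 days. That of 4 leukocyte markers was 4.81 to 7.34 CPM in the controls, 5.84 to 7.18 CPM at 2 days, 9.99 to 13.1 CPM at 4 days and 11.3 to 12.9 CPM at 6 days. That of 4 endothelial markers was 4.42 to 6.62, 4.44 to 6.56, 3.33 to 3.65 and 3.46 to 4.02 CPM in the same order. Epithelial sums were thus above all controls at 2 days and below them later, and leukocyte sums were above all controls at 4 and 6 days. The part of these shifts in the results was not tested. In RNA from a whole culture, fewer cells that express a gene and less RNA per cell cannot be told apart.

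Most of the 40 genes were lower after 2 days of doxorubicin than in the controls and higher again after 6 days than after 2 days. At 2 days 27 fell and RAD51C and RAD50 rose, where 23.4% of all tested genes fell and 23.8% rose, and their median log2 fold change was -0.48 against -0.01 for all genes. The libraries of the 2 groups did not overlap for 25 members on the lower side (26.1% of all genes) and 2 on the higher side (26.1%). At 4 days 15 fell and 1, RAD51C, rose (background 17.7% and 18.8%), with a median of -0.20. At 6 days 12 fell and 6 rose (background 21.7% and 22%), with a median of -0.01. The 6 that rose were FANCL, XRCC2, MRE11, RAD50, ATM and ATR, and only 3 members were called higher without 6-day replicate 2. Across the 4 groups 35 of the 40 differed, where 63.4% of all genes did, and FANCB, FANCF, FANCM, XRCC4 and LIG4 did not pass.

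Exposures were also compared with each other. At 4 days 17 members were higher and 1, RAD50, lower than at 2 days (background 16.3% and 18.5%), with a median of 0.26. The RAD50 call ended without 2-day replicate 3 (0.129), 4-day replicate 1 (0.142) or 4-day replicate 2 (0.0565), as adjusted p. At 6 days 5 members (BRIP1, RAD54L, MRE11, RBBP8 and EXO1) were higher and 0 lower than at 4 days by edgeR (background 3.05% and 3.73%). At an unadjusted p under 0.05 these were 16 and 1, where 10.2% and 10.9% of all genes passed, and DESeq2 called 8 and 0 members and 610 and 789 genes in all. At 6 days 27 were higher and 0 lower than at 2 days (background 19.8% and 23%), with a median of 0.43. At an unadjusted p under 0.05 these were 32 and 2, where 23.8% and 26.3% of all genes passed, and DESeq2 called 26 and 0 members and 3286 and 3903 genes in all. Libraries of these exposures did not overlap for 32 members on the higher side (25.9% of all genes) and 2 on the lower side (26.9%). The group mean was lowest at 2 days for 28 of the 40 members, where this held for 30.6% of all genes, and highest at 6 days for 17 (23.8% of all genes). The comparisons share libraries with each other, so their counts are not independent.

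When libraries were scaled by their totals only, the 2-day median was -0.136 over all genes and -0.60 over the members, with 31 members lower and 2 higher. The split of all genes went with it, to 3203 higher and 5386 lower at 2 days against the controls (4122 and 4058 with TMM) and to 5265 and 2538 at 6 days against 2 days (3437 and 3977 with TMM). It was 3842 and 2443 at 4 days against 2 days (2828 and 3203 with TMM) and 1006 and 350 at 6 days against 4 days (528 and 646 with TMM). Without control replicate 2 and 2-day replicate 3, 30 members were lower and 2 higher at 2 days, 20 and 1 at 4 days, and 13 and 5 at 6 days, each against the controls. Without the same libraries 24 members were higher and 0 lower at 4 days than at 2 days, 12 and 0 at 6 days against 4 days, and 31 and 1 (RAD51C) at 6 days against 2 days. Without 2-day replicate 2 alone, 2 members were lower at 6 days than at 2 days, RAD51C (-0.32, adjusted p = 0.0396) and XRCC6 (-0.23, adjusted p = 0.0305). At 4 days BRCA2, DNA2, TP53BP1, PRKDC and POLQ were called lower than the control without control replicate 2 (-0.45, -0.29, -0.33, -0.46 and -0.25), though not with all libraries. The count of members higher at 6 days than at 4 days was 2 without 4-day replicate 1, 6-day replicate 1 or 6-day replicate 2, and 3 without 4-day replicate 3 or 6-day replicate 3. BRIP1 and EXO1 were called whichever of these libraries was left out.

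**Figure D1:**
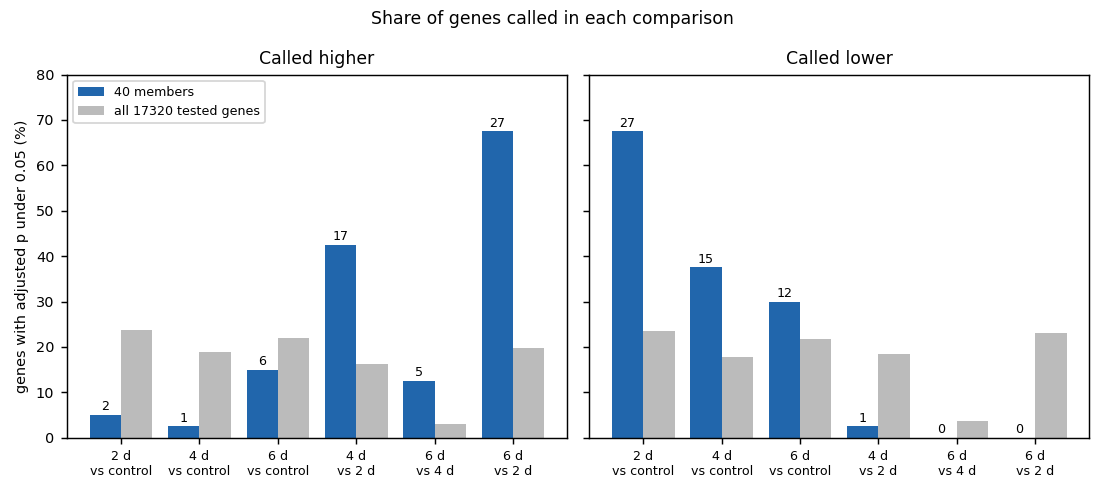
Share of the 40 repair and checkpoint genes (blue) and of all 17320 tested genes (grey) called higher (left) or lower (right), in percent, for each comparison, with the number of members above each blue bar. The members called lower number 27, 15 and 12 at 2, 4 and 6 days against the control, and those called higher at 6 days against 2 days number 27.

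Levels were compared between genes only per kilobase of exon in GENCODE 29. In the controls XRCC6 (184 CPM per kb), XRCC5 (114) and PRKDC (109), the 3 subunits of the DNA-dependent protein kinase, stood above every other member, followed by RAD51AP1 (61.3). The lowest were FANCF (0.567 CPM per kb), a gene of 1 exon, and RAD50 (0.576 CPM per kb). RAD50 shares 79.7% of its exonic bases with the annotated gene AC116366.3 on the same strand, which had 2 counts over all 12 libraries. Reads that fall on shared bases may not have been counted for either gene, so the RAD50 level is uncertain. The same holds for RAD54B (59.1% shared with FSBP on the same strand) and, if counting ignored strand, for XRCC3 (76.7% shared with KLC1), TP53BP1 (28.7%, TUBGCP4), RAD54L (25.1%, LRRC41), FANCA (23.6%, ZNF276) and FANCL (18.7%, VRK2).

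Promoters of the members were searched for 3 short elements known from genes of the cell cycle, in the 250 bases before to 50 after the start in RefSeq's GRCh38.p14 annotation, of which 34 of the 40 members had an entry. On both strands 14 of the 34 held the E2F core GCGGGAA (41.2%), against 6.55% of 35116 promoters of all genes and 9.16% of 16893 promoters of tested genes. The CCAAT box was in 16 (47.1%, against 34.6% of both sets) and the CHR element TTTGAA in 4 (11.8%, against 15.2% and 10.9%). At 2 days 12 of the 14 genes with the E2F core fell and 0 rose (median log2 fold change -0.68). Of the 20 without it 9 fell and 2 rose (median -0.21), where 23.4% of all tested genes fell and 23.8% rose. The shares among all tested genes that hold the E2F core were not counted, and the split of the members was not tested. For FANCI, RAD54B, NBN, DNA2, XRCC5 and PRKDC no promoter was used. The promoters of 6 genes are shown, 5′ to 3′ on the gene's strand, because these genes fell deepest (RAD51AP1, FANCA), hold the E2F core more than once (BLM) or rose at 6 days (FANCL, XRCC2, ATM). Capitals mark matches to the 3 elements, as the reverse complement where the match is on the other strand.
RAD51AP1: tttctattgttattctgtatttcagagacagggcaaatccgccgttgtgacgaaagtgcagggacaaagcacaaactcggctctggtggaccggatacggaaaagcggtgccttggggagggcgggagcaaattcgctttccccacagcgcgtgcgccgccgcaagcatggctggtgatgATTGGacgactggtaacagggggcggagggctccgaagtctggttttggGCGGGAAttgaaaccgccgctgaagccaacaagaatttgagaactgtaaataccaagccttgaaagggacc
BLM: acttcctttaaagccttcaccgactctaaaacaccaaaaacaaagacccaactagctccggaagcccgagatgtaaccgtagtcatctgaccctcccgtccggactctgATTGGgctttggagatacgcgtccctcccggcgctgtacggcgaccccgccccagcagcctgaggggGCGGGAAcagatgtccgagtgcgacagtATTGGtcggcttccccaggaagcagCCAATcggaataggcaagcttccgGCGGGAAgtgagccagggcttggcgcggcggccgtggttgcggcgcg
FANCL: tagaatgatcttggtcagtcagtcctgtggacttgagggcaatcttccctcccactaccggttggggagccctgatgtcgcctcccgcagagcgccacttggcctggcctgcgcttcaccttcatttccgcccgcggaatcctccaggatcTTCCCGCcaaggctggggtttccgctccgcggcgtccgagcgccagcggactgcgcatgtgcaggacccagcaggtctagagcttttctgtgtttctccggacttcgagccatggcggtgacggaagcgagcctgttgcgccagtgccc
XRCC2: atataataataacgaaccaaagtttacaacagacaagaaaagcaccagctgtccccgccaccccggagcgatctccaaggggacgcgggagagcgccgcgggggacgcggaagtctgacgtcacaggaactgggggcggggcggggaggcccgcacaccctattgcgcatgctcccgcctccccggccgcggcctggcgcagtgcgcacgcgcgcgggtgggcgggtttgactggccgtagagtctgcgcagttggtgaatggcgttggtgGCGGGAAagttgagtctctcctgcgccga
FANCA: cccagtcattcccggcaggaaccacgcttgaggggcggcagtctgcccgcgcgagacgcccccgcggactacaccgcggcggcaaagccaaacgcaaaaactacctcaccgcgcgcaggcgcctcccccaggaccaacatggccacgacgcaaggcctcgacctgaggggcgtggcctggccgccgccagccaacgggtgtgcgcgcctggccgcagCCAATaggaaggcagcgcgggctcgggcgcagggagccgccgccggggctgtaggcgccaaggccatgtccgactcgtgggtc
ATM: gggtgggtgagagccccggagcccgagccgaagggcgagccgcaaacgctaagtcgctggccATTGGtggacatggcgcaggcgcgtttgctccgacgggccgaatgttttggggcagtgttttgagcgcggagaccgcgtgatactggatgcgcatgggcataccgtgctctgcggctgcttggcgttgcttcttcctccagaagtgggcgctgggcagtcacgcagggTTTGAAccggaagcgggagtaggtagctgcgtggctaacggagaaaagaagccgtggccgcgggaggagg
They span chr12:4538640-4538939 (plus strand), chr15:90717096-90717395 (plus strand), chr2:58241276-58241575 (minus strand), chr7:152676092-152676391 (minus strand), chr16:89816598-89816897 (minus strand) and chr11:108222817-108223116 (plus strand). The promoters of RAD51AP1, BLM, FANCL and XRCC2 hold the E2F core, BLM in 2 places, and those of FANCA and ATM do not. MRE11, RAD50 and ATR also rose at 6 days, and their promoters, not shown, do not hold the E2F core. The promoters shown are therefore no measure of how often it occurs among the genes that rose. RAD51AP1 fell furthest at 2 days (-1.26), FANCA was next (-1.08), and XRCC2 and ATM were not called at 2 days (-0.09 and -0.25) and rose at 6 days. Without control replicate 2 and 2-day replicate 3 both were called lower at 2 days (XRCC2 -0.29, adjusted p = 0.0215; ATM -0.57, adjusted p = 0.00276), and ATM also without control replicate 2 alone (-0.44, adjusted p = 0.0372).

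The Fanconi genes, whose products detect and unhook crosslinks between DNA strands, were mostly lower at 2 days. Of the 10 genes 7 fell and 0 rose (23.4% and 23.8% of all tested genes), with a median log2 fold change of -0.69. FANCA (ENSG00000187741.15, chromosome 16, 89737549 to 89816657, GRCh38), a scaffold of the core complex, had 86.7, 90.7 and 87.8 CPM in the controls, 42.7, 40.9 and 41.3 CPM at 2 days, 69.8, 68.0 and 63.8 CPM at 4 days and 79.7, 72.4 and 83.5 CPM at 6 days. Its 2-day libraries were the lowest of all 12 and did not overlap with any other group, and it was 2.12-fold lower at 2 days, a log2 fold change of -1.08 ± 0.081 (adjusted p = 5.51e-11). At 4 days it was -0.40 ± 0.079 (adjusted p = 3.08e-04), and at 6 days the test was not passed (-0.17 ± 0.078, adjusted p = 0.0829).

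FANCD2 and FANCI form the clamp that the core complex marks with ubiquitin. FANCD2 had 115, 112 and 116 CPM in the controls, 59.8, 63.0 and 67.2 CPM at 2 days, 97.7, 97.8 and 87.2 CPM at 4 days and 99.9, 103 and 94.7 CPM at 6 days. Every treated library lay below every control, those at 2 days lowest, with a log2 fold change of -0.86 ± 0.079 (adjusted p = 2.59e-09) at 2 days and -0.21 ± 0.078 (adjusted p = 0.0344) at 6 days. The 6-day call ended without control replicate 1 (0.0681), control replicate 3 (0.0872), 6-day replicate 1 (0.0756) or 6-day replicate 3 (0.13), as adjusted p, and the 4-day call without 4-day replicate 3 (0.0503). FANCI had 261, 231 and 244 CPM in the controls, 139, 133 and 151 CPM at 2 days, 204, 211 and 192 CPM at 4 days and 242, 235 and 230.2 CPM at 6 days. It fell at 2 days (-0.80 ± 0.076, adjusted p = 4.83e-09) and 4 days (-0.28 ± 0.076, adjusted p = 0.00526), and its 6-day libraries overlapped with the controls (-0.06 ± 0.075, adjusted p = 0.563). FANCG, a member of the core complex, had 72.8, 81.9 and 67.9 CPM in the controls, 42.7, 39.98 and 39.9 CPM at 2 days, 70.5, 64.5 and 61.5 CPM at 4 days and 66.8, 69.4 and 82.1 CPM at 6 days. It fell at 2 days (-0.86 ± 0.095, adjusted p = 5.04e-08) and was -0.03 at 6 days (adjusted p = 0.845).

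FANCL, the ubiquitin ligase subunit that modifies FANCD2 and FANCI, changed direction with the length of exposure. It had 31.5, 31.5 and 34.9 CPM in the controls, 21.1, 16.0 and 23.2 CPM at 2 days, 35.0, 34.5 and 32.6 CPM at 4 days and 41.4, 42.2 and 39.4 CPM at 6 days. Its 2-day libraries lay below all controls and its 6-day libraries above all of them, at -0.70 ± 0.11 (adjusted p = 1.07e-05) and 0.33 ± 0.10 (adjusted p = 0.0135), and the rise of 6 days over 2 days was 1.02 ± 0.11 (adjusted p = 4.65e-08). Without control replicate 1 the 6-day rise over the control was not called (adjusted p = 0.0514). FANCE, which bridges the core complex to FANCD2, stayed low. It had 26.3, 24.6 and 24.0 CPM in the controls, 15.1, 15.4 and 16.2 CPM at 2 days, 14.3, 15.3 and 15.04 CPM at 4 days and 16.1, 14.3 and 14.7 CPM at 6 days. It fell at all 3 exposures (-0.68 ± 0.10, -0.75 ± 0.10 and -0.73 ± 0.10), and the difference between 6 and 2 days was -0.05 ± 0.10 (adjusted p = 0.729). FANCC fell at each exposure (log2 -0.57, -0.39 and -0.27), the last not without control replicate 1 (0.124), control replicate 2 (0.0524), 6-day replicate 1 (0.107) or 6-day replicate 2 (0.0788), as adjusted p. FANCB, FANCF and FANCM had log2 fold changes of -0.13 to 0.52 against the control and none was called. FANCM was called lower at 4 days without control replicate 2 (-0.28, adjusted p = 0.0386) and higher at 6 days without control replicate 1 (0.33, adjusted p = 0.0308), and FANCB higher at 6 days with no low-count filter (adjusted p = 0.00957).

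**Figure D2:**
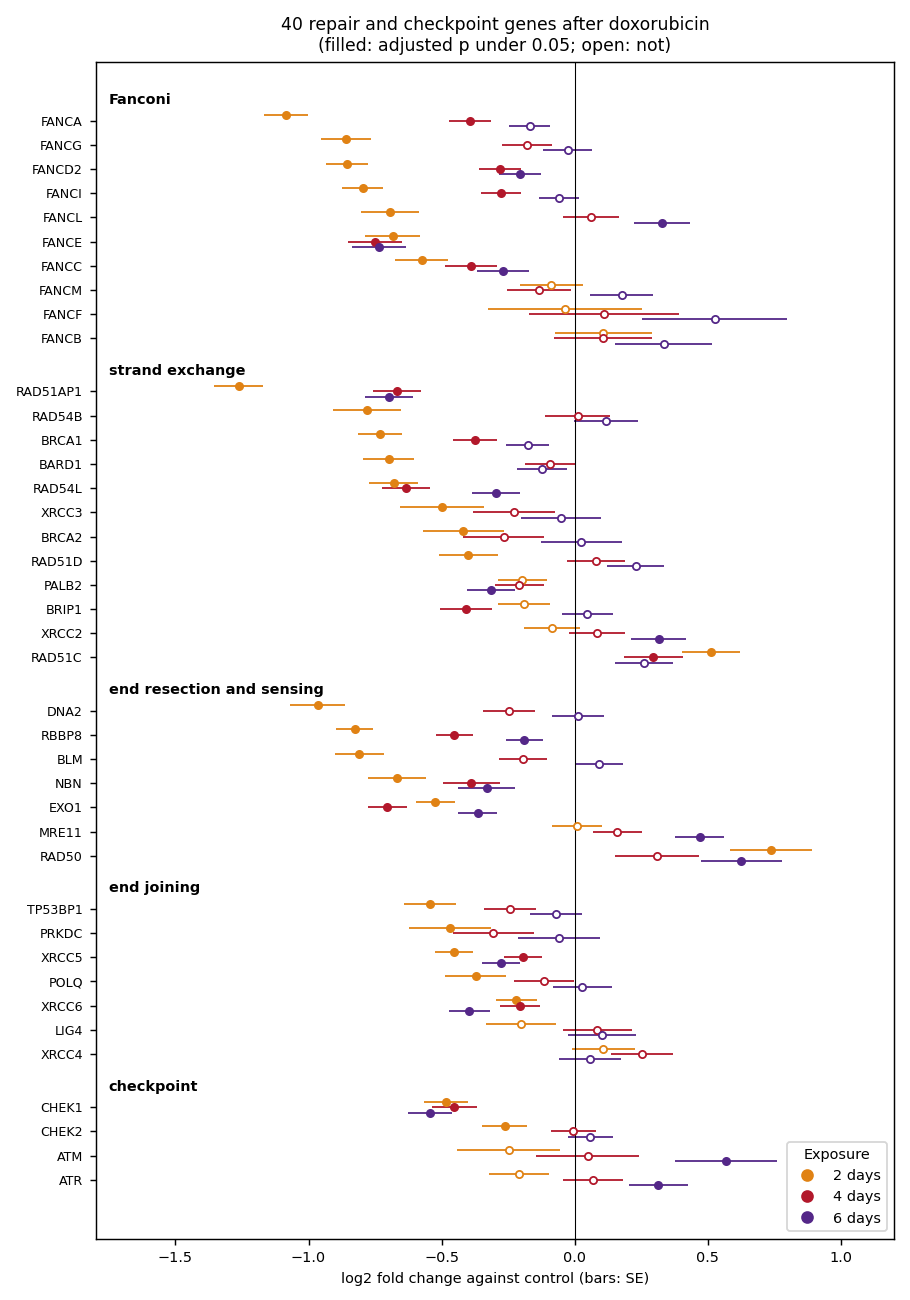
Log2 fold change against the control (x axis, bars are SE) of each of the 40 genes, grouped by role and ordered by the 2-day value, after 2 (orange), 4 (red) and 6 days (purple) of doxorubicin. Filled points passed an adjusted p of 0.05. For most genes the 2-day point lies furthest left, down to -1.26 for RAD51AP1. RAD51C, MRE11, RAD50, FANCB and XRCC4 lie at or right of 0 at every exposure, FANCB and XRCC4 with open points only.

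Among the genes of strand exchange 8 of 12 fell at 2 days and 1 rose (23.4% and 23.8% of all tested genes). RAD51AP1 (ENSG00000111247.15, chromosome 12, 4538798 to 4560048), which promotes pairing with the template strand, fell the furthest of all 40 genes. It had 167, 146 and 157 CPM in the controls, 65.7, 56.3 and 73.8 CPM at 2 days, 103, 99.6 and 93.1 CPM at 4 days and 103, 98.2 and 89.0 CPM at 6 days. Every treated library was below every control, with log2 fold changes of -1.26 ± 0.093 (adjusted p = 4.16e-11) at 2 days, -0.67 ± 0.091 at 4 days and -0.70 ± 0.091 at 6 days. The 6-day level exceeded the 2-day level by 0.56 ± 0.092 (adjusted p = 2.54e-05).

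BRCA1 and BARD1 encode the paired ubiquitin ligase that promotes resection. BRCA1 had 163, 141 and 168 CPM in the controls, 96.2, 88.5 and 99.0 CPM at 2 days, 117, 131 and 115 CPM at 4 days and 135, 142 and 141 CPM at 6 days. It fell at 2 days (-0.73 ± 0.083, adjusted p = 7.42e-08) and 4 days (-0.38 ± 0.082, adjusted p = 7.64e-04), while the 6-day libraries overlapped with the controls at -0.18 ± 0.082 (adjusted p = 0.0823); without control replicate 2 the adjusted p at 6 days was 0.00988. BARD1 averaged 44.7 ± 3.89 CPM at 2 days and 72.7 ± 7.59 CPM in the controls (SD, n = 3 each; -0.70 ± 0.095, adjusted p = 1.45e-06), and neither later exposure passed. BRCA2, a mediator of homologous recombination, was -0.42 ± 0.15 at 2 days (adjusted p = 0.0348), a call lost without control replicate 1 (0.138), control replicate 3 (0.119), 2-day replicate 1 (0.125) or 2-day replicate 2 (0.106), as adjusted p, and -0.70 without control replicate 2 and 2-day replicate 3. Its partner PALB2 was called against the control at 6 days (-0.32 ± 0.092, adjusted p = 0.00717). Without control replicate 2 PALB2 was also called lower at 2 days (-0.24, adjusted p = 0.0341) and 4 days (-0.25, adjusted p = 0.038), and without 4-day replicate 2 at 4 days (-0.30, adjusted p = 0.0173). With library totals alone it was called at both (adjusted p = 0.00483 at 2 days and 0.0352 at 4 days).

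RAD54L and RAD54B are motor proteins that remodel DNA during recombination. RAD54L had 38.1, 36.4 and 34.0 CPM in the controls, 22.1, 22.1 and 23.5 CPM at 2 days, 22.4, 23.3 and 24.3 CPM at 4 days and 29.7, 29.2 and 29.5 CPM at 6 days. It fell at 2 days (-0.68 ± 0.091) and 4 days (-0.63 ± 0.090) and was still lower than the control at 6 days (-0.30 ± 0.089, adjusted p = 0.00879). RAD54B had 13.3, 11.6 and 14.0 CPM in the controls, 7.11, 7.32 and 8.23 CPM at 2 days, 13.3, 14.0 and 11.9 CPM at 4 days and 13.6, 13.7 and 14.9 CPM at 6 days. It was called lower at 2 days (-0.78 ± 0.13, adjusted p = 1.79e-05) but not at 4 days (0.01 ± 0.12, adjusted p = 0.958) or 6 days (0.12 ± 0.12, adjusted p = 0.454). BRIP1, a helicase that binds BRCA1, was called lower than the control at 4 days (-0.41 ± 0.098, adjusted p = 0.00185) and was higher at 6 days than at 4 days (0.46 ± 0.098, adjusted p = 0.00498). At 2 days BRIP1 was -0.19 and not called, but it was called lower without control replicate 2 (-0.32, adjusted p = 0.00157) and with library totals alone (-0.31, adjusted p = 0.0108).

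RAD51C, RAD51D, XRCC2 and XRCC3 act together in complexes that assist strand exchange. RAD51C had 21.6, 27.9 and 22.9 CPM in the controls, 39.3, 31.3 and 32.3 CPM at 2 days, 29.4, 30.7 and 28.6 CPM at 4 days and 28.6, 31.0 and 27.0 CPM at 6 days. Its 2-day libraries lay above all controls (0.51 ± 0.11, adjusted p = 4.33e-04). At 4 days the call (0.29 ± 0.11, adjusted p = 0.0395) ended when control replicate 1 or 3 or any 1 of the 4-day libraries was left out (adjusted p of 0.0552 to 0.19) and, among other settings, with library totals alone (0.0666). RAD51D and XRCC3 fell at 2 days (log2 -0.40 and -0.50), the second not without control replicate 2 (0.0998) or 2-day replicate 1 (0.051), as adjusted p. XRCC2 was -0.09 ± 0.11 (adjusted p = 0.526) at 2 days and rose at 6 days, to 47.1 CPM against 37.9 CPM in the controls (0.31 ± 0.10, adjusted p = 0.0161). Without control replicate 2 that rise was 0.19 on the log2 scale (adjusted p = 0.114), and without 6-day replicate 2 the adjusted p was 0.0522.

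**Figure D3:**
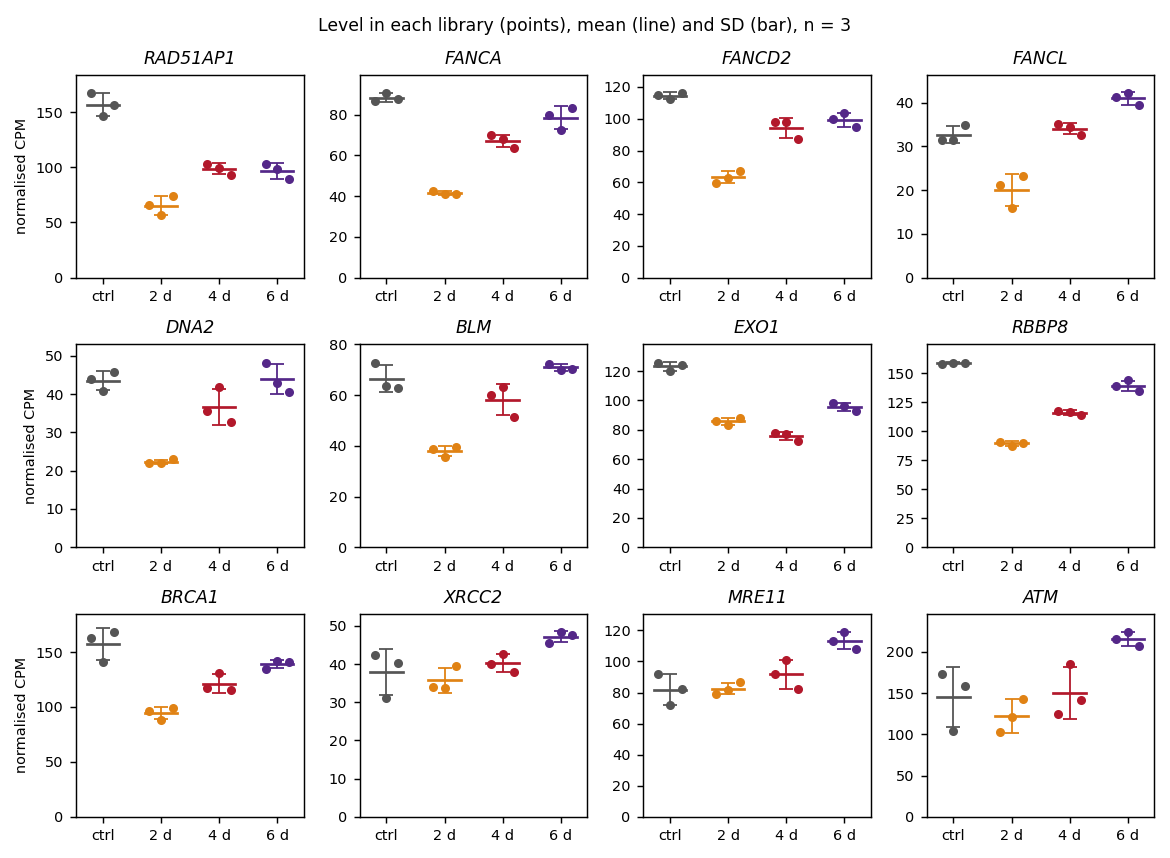
Normalised CPM in each library (points) of 12 of the 40 genes in the control and after 2, 4 and 6 days of doxorubicin, with the mean (line) and SD (bar) of 3 libraries. For RAD51AP1, FANCA, FANCD2, FANCL, DNA2, BLM, RBBP8 and BRCA1 the 2-day points lie below all others. For FANCL, XRCC2, MRE11 and ATM the 6-day points lie above all others.

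Of the 7 genes that sense and resect broken ends 5 fell and 1 rose at 2 days (23.4% and 23.8% of all tested genes). Their median log2 fold change was -0.67. RBBP8, which encodes the CtIP protein that starts resection with the MRN complex, had 158, 159 and 159 CPM in the controls, 91.0, 87.2 and 90.0 CPM at 2 days, 118, 117 and 114 CPM at 4 days and 139, 144 and 135 CPM at 6 days. All its treated libraries lay below the controls, those at 2 days lowest, at -0.83 ± 0.071 (adjusted p = 6.33e-10), -0.45 ± 0.070 and -0.19 ± 0.070 (adjusted p = 0.0294) against the control. The 6-day call ended without control replicate 1 (0.0539), control replicate 3 (0.0673), 6-day replicate 1 (0.0782) or 6-day replicate 3 (0.101), as adjusted p. DNA2 and BLM, a nuclease and a helicase that extend resection together, had their lowest 3 libraries at 2 days. DNA2 had 43.9, 40.8 and 45.8 CPM in the controls, 22.0, 21.9 and 22.9 CPM at 2 days, 35.6, 41.8 and 32.7 CPM at 4 days and 48.3, 42.9 and 40.6 CPM at 6 days, and fell by 0.97 on the log2 scale at 2 days (adjusted p = 2.45e-08). BLM had 72.8, 63.8 and 63.0 CPM in the controls, 38.8, 35.6 and 39.5 CPM at 2 days, 60.2, 63.2 and 51.2 CPM at 4 days and 72.4, 70.1 and 70.4 CPM at 6 days, with -0.81 ± 0.092 (adjusted p = 7.69e-08) at 2 days and 0.09 ± 0.089 (adjusted p = 0.425) at 6 days.

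EXO1, the other long-range resection nuclease, had its lowest mean at 4 days. It had 126, 119.9 and 124 CPM in the controls, 85.9, 83.4 and 88.2 CPM at 2 days, 77.5, 77.1 and 72.6 CPM at 4 days and 98.2, 96.4 and 92.8 CPM at 6 days. It was called lower at each exposure (-0.52 ± 0.073, -0.70 ± 0.073 and -0.37 ± 0.073) and higher at 6 days than at 4 days (0.34 ± 0.073, adjusted p = 0.00542). The difference between 4 and 2 days did not pass (-0.18 ± 0.074, adjusted p = 0.0604), though DESeq2 called it (adjusted p = 0.0382).

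The MRN complex, which binds the break and recruits ATM, is built of MRE11, RAD50 and NBN. MRE11, the nuclease, had 91.9, 71.8 and 82.0 CPM in the controls, 79.1, 81.7 and 86.5 CPM at 2 days, 91.9, 101 and 82.0 CPM at 4 days and 113, 119 and 108 CPM at 6 days. It was 0.01 ± 0.093 (adjusted p = 0.953) at 2 days, and at 6 days all 3 libraries lay above the controls (0.47 ± 0.092, adjusted p = 1.95e-04). RAD50, the bridging ATPase with the shared exons, had 5.56, 4.79 and 6.54 CPM in the controls, 9.07, 8.56 and 10.5 CPM at 2 days, 5.99, 7.02 and 7.90 CPM at 4 days and 8.65, 8.56 and 8.84 CPM at 6 days. It rose at 2 days (0.74 ± 0.15, adjusted p = 3.09e-04) and 6 days (0.63 ± 0.15, adjusted p = 0.00176), on 73 to 191 counts per library. NBN, the subunit that contacts ATM, fell at each exposure, to 50.7 ± 5.58 CPM at 2 days against 80.6 ± 12.7 CPM in the controls (-0.67 ± 0.11, adjusted p = 1.7e-05). Its 6-day call (-0.33 ± 0.11, adjusted p = 0.0148) ended without control replicate 1 (0.0669), control replicate 3 (0.0849), 6-day replicate 1 (0.0601) or 6-day replicate 3 (0.0724), as adjusted p.

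Of the 7 end-joining genes 5 fell and 0 rose at 2 days (23.4% and 23.8% of all tested genes). Their median log2 fold change was -0.37. XRCC5 and XRCC6 encode the Ku ring that threads onto broken ends. XRCC5 had 605, 643 and 624 CPM in the controls, 475, 426 and 464 CPM at 2 days, 567, 546 and 521 CPM at 4 days and 513, 519.6 and 510.3 CPM at 6 days. It lay below every control at each exposure (-0.45 ± 0.072, adjusted p = 1.06e-05 at 2 days, -0.28 ± 0.071, adjusted p = 0.00269 at 6 days). Its 4-day call (-0.20, adjusted p = 0.0337) ended without control replicate 2 (0.0678), control replicate 3 (0.0773), 4-day replicate 2 (0.0771) or 4-day replicate 3 (0.134), as adjusted p. XRCC6 had its lowest mean at 6 days, with 459 ± 6.79 CPM against 604 ± 45.9 CPM in the controls (-0.40 ± 0.076, adjusted p = 1.63e-04). The difference from 2 days (-0.18 ± 0.076 (adjusted p = 0.0672)) and that from 4 days (-0.19 ± 0.076 (adjusted p = 0.142)) did not pass. Its fall at 2 days (-0.22, adjusted p = 0.0201) was lost without control replicate 2 (0.0751) or 2-day replicate 2 (0.15), as adjusted p; with library totals alone it was -0.34.

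PRKDC, the kinase subunit that Ku recruits, had 1965, 1296 and 1789 CPM in the controls, 1007, 1159 and 1481 CPM at 2 days, 1264, 1577 and 1245 CPM at 4 days and 1587, 1682 and 1579 CPM at 6 days. Its control and 2-day libraries overlapped and the fall at 2 days (-0.47 ± 0.15, adjusted p = 0.0204) was lost without control replicate 1 (0.098), control replicate 3 (0.0739), 2-day replicate 1 (0.0823) or 2-day replicate 2 (0.0756), as adjusted p, while without control replicate 2 and 2-day replicate 3 it was -0.79. TP53BP1, which shields ends from resection, had 175, 136 and 158 CPM in the controls, 94.6, 110.3 and 118 CPM at 2 days, 129, 147 and 120.1 CPM at 4 days and 148, 158 and 141 CPM at 6 days. It fell at 2 days (-0.54 ± 0.098, adjusted p = 6.03e-05) and was -0.07 ± 0.097 (adjusted p = 0.586) at 6 days. POLQ, the polymerase of the microhomology route, was -0.37 ± 0.11 (adjusted p = 0.00926) at 2 days, not called without control replicate 1 (0.0647) or 2-day replicate 1 (0.0775), as adjusted p. XRCC4 and LIG4, the ligation pair, had log2 fold changes of -0.20 to 0.25 against the control and were not called at any exposure. LIG4 was called lower at 2 days without control replicate 2 (-0.33, adjusted p = 0.0267) and with library totals alone (-0.33, adjusted p = 0.042).

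Of the 4 checkpoint kinases 2 fell and 0 rose at 2 days (23.4% and 23.8% of all tested genes). At 6 days 1 fell and 2 rose (21.7% and 22% of all tested genes). A difference of the 4 kinases from these shares was not tested. CHEK1, the effector of ATR, had 61.0, 57.5 and 56.9 CPM in the controls, 40.2, 41.8 and 43.5 CPM at 2 days, 42.4, 45.8 and 40.02 CPM at 4 days and 40.8, 41.0 and 38.6 CPM at 6 days. All its treated libraries lay below all controls (-0.48 ± 0.084, adjusted p = 3.82e-05 at 2 days and -0.54 ± 0.084, adjusted p = 9.74e-06 at 6 days), and the difference between 6 and 2 days was -0.06 ± 0.085 (adjusted p = 0.597). CHEK2, the effector of ATM, was -0.26 ± 0.085 (adjusted p = 0.0131) at 2 days, not called without 2-day replicate 1 (adjusted p = 0.0655) or without control replicate 2 and 2-day replicate 3 (0.101), and 0.06 at 6 days (adjusted p = 0.613).

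The 2 sensor kinases were called higher at 6 days than in the controls, and both calls ended when certain single libraries were left out. ATM (ENSG00000149311.19, chromosome 11, 108222484 to 108369102) had 173, 104 and 159 CPM in the controls, 103, 121 and 143 CPM at 2 days, 124, 185 and 141 CPM at 4 days and 215, 224 and 207 CPM at 6 days. Its 6-day libraries were the highest of the 12, at 0.57 ± 0.19 (adjusted p = 0.0323) against the control, and 0.82 ± 0.19 (adjusted p = 0.00511) against 2 days. The rise over the control was not called without control replicate 2 (0.080), 6-day replicate 1 (0.0694), 6-day replicate 2 (0.0835) or 6-day replicate 3 (0.0679), as adjusted p, and was 0.38 on the log2 scale without control replicate 2. ATR, 16.4% of whose exonic bases lie opposite a pseudogene, had 62.0, 45.4 and 52.6 CPM in the controls, 42.0, 44.5 and 52.1 CPM at 2 days, 54.3, 63.1 and 50.6 CPM at 4 days and 64.9, 73.4 and 60.8 CPM at 6 days. It was 0.31 ± 0.11 (adjusted p = 0.0254) at 6 days, with overlapping libraries, and the value was 0.21 without control replicate 2 and 2-day replicate 3, and the call ended without control replicate 2 (0.118), control replicate 3 (0.0715) or 6-day replicate 2 (0.139), as adjusted p. At 2 days ATR was -0.21 and not called, but it was called lower without control replicate 2 (-0.32, adjusted p = 0.0147) or 2-day replicate 3 (-0.30, adjusted p = 0.0493). Its rise of 6 days over 2 days (0.52 ± 0.11, adjusted p = 5.36e-04) had no overlap.

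Levels of 25 markers of cycling cells were set beside those of the 40 genes. At 2 days 22 of the 25 fell and 1 rose (median log2 fold change -0.85), and at 4 days 20 fell and 2 rose (median -0.49). At 6 days 18 fell and 2 rose (median -0.59), when 12 of the 40 repair and checkpoint genes fell. The shares of all tested genes that fell and rose were 23.4% and 23.8% at 2 days, 17.7% and 18.8% at 4 days, and 21.7% and 22% at 6 days. Between 6 and 2 days 7 cycling markers were higher and 8 lower, with a median of 0.04, where 27 of the 40 were higher and 0 lower. In that comparison 19.8% of all tested genes were higher and 23% lower. Within single libraries, the median member lay at -0.555 to -0.418 log2 units from its control mean at 2 days, -0.263 to -0.087 at 4 days and -0.023 to 0.007 at 6 days. The median cycling marker lay at -0.816 to -0.808, -0.513 to -0.486 and -0.679 to -0.472. MKI67, the proliferation antigen, averaged 1155 ± 48.0 CPM in the controls, 529 ± 48.3 at 2 days, 600.1 ± 47.9 at 4 days and 404 ± 22.9 at 6 days (SD, n = 3 each). CCNE2, a cyclin of the entry into S phase, averaged 40.7 ± 6.51, 9.65 ± 2.83, 35.1 ± 4.15 and 41.2 ± 2.37 CPM in the same order. Both genes were chosen after their values were seen. CCNE2 was near its control mean at 6 days, when 18 of the 25 markers fell, so it does not stand for the list. Log2 fold changes of the 25 markers ran from -2.06 to 0.56 at 2 days, and from -1.32 to 2.08 at 6 days against 2 days. The part of the change in cycling markers in the levels of the 40 genes was not tested.

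**Figure D4:**
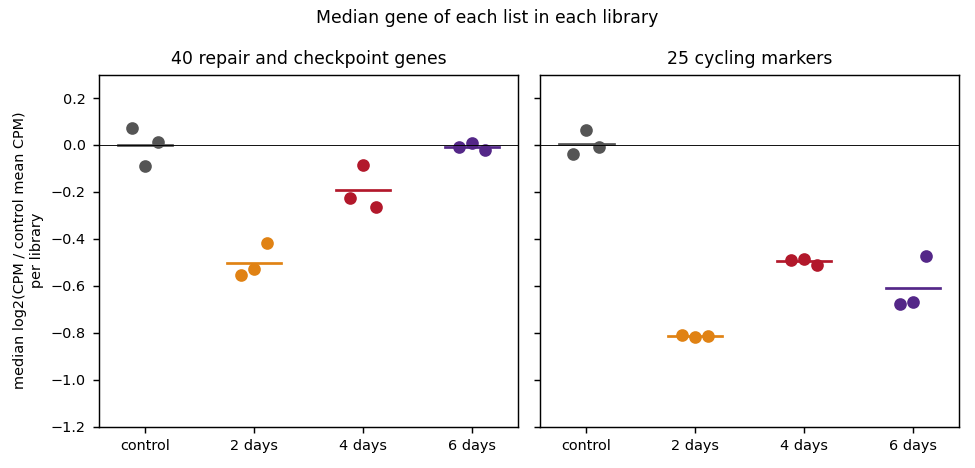
Median over the 40 repair and checkpoint genes (left) and over 25 cycling markers (right) of the log2 ratio of a gene's CPM to its control mean, for each library (points; lines are means of 3 libraries) of the control and after 2, 4 and 6 days. The members reach -0.023 to 0.007 at 6 days and the cycling markers -0.679 to -0.472.

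The 40 genes lie on 19 chromosomes and span 3.00 to 328 kb, from FANCF to FANCC. Across the 40 genes, which share the same libraries, Spearman's rho between gene span and log2 fold change was -0.03 at 2 days and 0.09 at 6 days, against 0.02 and 0.07 across 17099 tested genes; genes are not independent replicates.

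A further 77 genes of the same pathways, listed with earlier results of these data known, were tested beside them. Of 76 that passed the filter, 41 fell and 5 rose at 2 days (median -0.32), 20 fell and 5 rose at 4 days (median -0.09), and 27 fell and 14 rose at 6 days (median -0.15). Of all tested genes 23.4% fell and 23.8% rose at 2 days, 17.7% and 18.8% at 4 days, and 21.7% and 22% at 6 days. The furthest falls at 2 days were in CLSPN, the mediator between ATR and CHK1 (88.3 ± 10.1 CPM against 219.6 ± 13.5 CPM in the controls; -1.31 ± 0.083), H2AX, the histone variant that ATM marks at breaks (-1.31 ± 0.16), and CDC25C, a phosphatase that the checkpoint restrains (-1.12 ± 0.10). The largest rises at 2 days were in APTX, which removes stalled ligation intermediates (89.2 ± 2.78 CPM against 49.0 ± 3.87 CPM in the controls; 0.86 ± 0.082), the end-joining factor APLF (0.68 ± 0.16) and FAAP20, a small protein of the Fanconi core complex (0.62 ± 0.15). At 6 days CDC25B (74.9 ± 4.68 CPM against 185 ± 22.7 CPM in the controls; -1.31 ± 0.090), H2AX (-0.94 ± 0.15) and the end-joining factor NHEJ1 (-0.87 ± 0.16) were furthest below the control. APLF (1.13 ± 0.15), SFR1, a recombination factor (0.78 ± 0.15), and RAD52, an annealing protein (0.56 ± 0.11), were furthest above it.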

How the data were processed

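The deposited table holds raw read counts per Ensembl gene for 12 libraries, as the file headers name them; the deposited values are whole counts that show no normalization. The submitters' processing notes name fastp 0.23.2, Trimmomatic 0.38, STAR 2.7.8, HTSeq 0.13.5 and the build GRCh38.p13, without roles. Per the labels' protocols the libraries were made with a NEBNext Ultra RNA kit, and the strand setting of the counting is not given in the sources used here. 0 columns of samples were left unused.

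Genes with low counts were removed with edgeR's filterByExpr (minimum count 10, total 15), leaving 17320 of 60607. Counts were scaled by TMM and fitted in 1 model with a mean per group (8 residual degrees of freedom) by edgeR 4.0.16 in R 4.3.3, with limma 3.58.1, and p-values were adjusted by Benjamini-Hochberg over all tested genes. DESeq2 1.42.0, other scalings and filters, fits of 2 groups, a replicate block and leaving out each library were the alternatives; the comparison of 6 with 2 days and the fit without 2 libraries were added after the data were seen. The members and lists were chosen with earlier results of these data known. Values in every library are given for members called against the control with an absolute log2 fold change of at least 0.7, the 2 with the smallest p in each role and those called in opposite directions; the other members given values, and MKI67 and CCNE2 among the cycling markers, were chosen after their values were seen. Of the other pathway genes, the 3 largest called falls and rises with at least 5 CPM in the higher group are named at 2 and 6 days. Gene coordinates, exon lengths and overlaps came from GENCODE 29 (GRCh38) and promoters from RefSeq (GRCh38.p14). On simulated counts for 2 days against the control over 17320 genes, the test recovered 38 of 67 genes changed 1.5-fold, 49 of 67 changed 2-fold and 61 of 66 changed 4-fold. Only these genes were changed in the simulation, with the spread set by a gene's level alone. In the data 8180 genes were called for this comparison, so the recovered shares do not give the power of the real test.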

Additional observations from a re-analysis of the deposited data

Results flagged for a closer look

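FANCL was picked out because its change against the control ran in opposite directions at 2 exposures and the difference between them was itself tested. It was 0.33 ± 0.10 (adjusted p = 0.0135) at 6 days and -0.70 ± 0.11 (adjusted p = 1.07e-05) at 2 days on the log2 scale, and 6 days exceeded 2 days by 1.02 ± 0.11 by edgeR's quasi-likelihood test (adjusted p = 4.65e-08). Because FANCL was picked for opposite calls in these same libraries, the difference between 6 and 2 days is no separate support for the change of direction. The rise against the control at 6 days was not called without control replicate 1 (adjusted p = 0.0514).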

How the results depend on the processing

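No log2 fold change of a member that was called reversed under any alternative run. Members higher at 4 days than in the control numbered 0 with library totals alone, with no low-count filter and with only the compared groups in the fit, and 0 to 1 when 1 library was left out. Members higher at 6 days than in the control numbered 3 to 6 when 1 library was left out. Members lower at 4 days than at 2 days numbered 0 with library totals alone and without control replicate 2 and 2-day replicate 3, 2 with a filter of 1 CPM, with DESeq2 and with only the compared groups, and 0 to 2 when 1 library was left out. Members higher at 6 days than at 4 days numbered 12 with library totals alone, 8 with DESeq2, 13 with only the compared groups, 12 without the 2 libraries, and 2 to 6 when 1 library was left out. All genes changed between 6 and 4 days numbered 1837 with only the compared groups, 2027 without the 2 libraries and 572 to 871 when 1 library was left out, against 1174. Members lower at 6 days than at 2 days numbered 1 with only the compared groups, 1 without the 2 libraries and 0 to 2 when 1 library was left out. Some of these settings let fewer libraries or another set of genes enter the fit, and the cause of the changed counts was not tested. Same-numbered libraries did not deviate together (correlations -0.17 to 0.10). This cannot tell whether they were matched by culture or batch, which is not stated. With the replicate block the members lower and higher numbered 26 and 2 at 2 days, 14 and 1 at 4 days and 11 and 6 at 6 days against the control, and those higher and lower numbered 16 and 1 at 4 days and 25 and 0 at 6 days against 2 days, and 4 and 0 at 6 days against 4 days. With the window cut to 200 bases the CHR element was in 2 promoters, CCAAT in 15 and the E2F core in 14. Depth limits FANCF most, with 19 to 55 counts per library and an SE of 0.27 to 0.29 against the control, and then RAD50, with 73 to 191 counts.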

Other observations

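Summed over the 40 genes, control replicate 2 had 5023 CPM, against 5987 and 5748 CPM in the other controls, and 2-day replicate 3 had 4458 CPM, against 3800 and 3831 CPM in the other 2-day libraries. PRKDC alone had 1296 CPM in control replicate 2 and 1481 CPM in 2-day replicate 3. These are the libraries that stood apart from their own groups in mitochondrial share, which was 8.01% to 8.34% in the 4-day libraries. ATM had its lowest control value, 104 CPM, in control replicate 2.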
